A study of Arabidopsis thaliana with 4 samples.

Results

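COR15B, KIN2 and COR47 are cold and dehydration genes of Arabidopsis thaliana, and their transcripts were read in rosette leaves that had lost a major nutrient. The probe sets were taken by gene name from the annotation of the array, and only those listed for a single gene were used. The genes themselves were chosen with earlier results of these arrays known, so their ranks among other transcripts are descriptions. This gave 5 probe sets for the 3 genes, 1 for COR15B and 2 each for KIN2 and COR47, of 8247 probe sets analysed and of 3602 genes named by a probe set of their own. All 5 lay above the low-signal floor on all 4 arrays, so no member was lost to a filter.

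The plants were of ecotype Col-5 and carried no transgene or mutation named in the labels. They grew with 1% sucrose in agar under 16 h days until day 21, then in hydroponics under constant light (24 °C, 80% humidity), and rosette leaves were taken 28 h after a nutrient was withdrawn. There were 4 groups with 1 Affymetrix array each, and the labels do not say how many plants a sample held. The full-nutrient group had 0.25 mM KH2PO4 and 0.5 mM KOH among its salts. No nitrate salt is listed for it, although the nitrate-free solution is described as lacking calcium nitrate, which leaves the nitrate supply of the reference uncertain. The nitrate-free group received 4 mM extra calcium sulphate, the phosphate-free group had no KH2PO4 and 0.125 mM extra K2SO4, and the potassium-free group had neither KH2PO4 nor KOH and 0.27 mM extra Ca(H2PO4)2. The labels name no cold or drought treatment for any group.

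The proteins of these genes belong to the set that Arabidopsis leaves accumulate during cold acclimation and water loss. CBF/DREB1 transcription factors switch the set on in the cold through the CRT/DRE promoter element, and abscisic acid acts on it through ABRE elements and the ABF factors. COR15B, a close relative of COR15A, encodes a small protein of the chloroplast stroma that protects membranes when cells freeze. KIN2, also called COR6.6, encodes a very small hydrophilic protein. COR47 encodes an acidic dehydrin, one of the disordered late embryogenesis abundant (LEA) proteins. In the gene table of assembly TAIR10.1 each of them lies next to a relative: COR15B beside COR15A, KIN2 beside KIN1 and COR47 beside ERD10.

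All 4 arrays carried signals of leaf markers. The annotation named 7 of the 10 leaf markers listed, all above the floor, with RCA, the gene of Rubisco activase, between 3740.4 and 5766.0. Every probe set of these markers was lower on the potassium than on the full-nutrient array, with log2 ratios from -0.62 for RCA to -1.06 for a probe set of PSBW, a photosystem subunit gene. It named 1 of 6 root markers and 1 of 6 flower and seed markers. The root marker BGLU21 was at 0.8 to 5.3 on 3 arrays and at 377.2 on the potassium array, and the part of either marker list in the potassium ratios of the 3 genes was not tested. The flower marker AT5G07230 was below the floor on every array. The full-nutrient array had 312 masked cells against 0 on the others, per the labels. Whether probes of the 3 genes were among them was not tested. In whole-leaf RNA, fewer cells with a transcript and less of it per cell cannot be told apart.

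With 1 array per condition there is no replicate error, no test could be made and no p-value is given. Values below are deposited signals on a linear intensity scale, followed by the log2 ratio between arrays, and a difference was counted from 2-fold. The only measure of error available was the disagreement between different probe sets of the same gene, which is an error of measurement within arrays and not a spread between plants. Over 69 to 73 genes with several measured probe sets, their log2 ratios lay a median of 0.24 to 0.30 apart, depending on the pair of arrays, and 10% of genes exceeded 0.50 to 0.75. Such a gap is as a rule wider than the error of the mean of the same probe sets. It is thus a wide limit for the means of KIN2 and COR47, and a mean below it is not shown to equal the reference. A level is compared only with the same probe set on another array.

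COR15B differed most among the 3 genes. The signal of its probe set, 13785_at, was 284.5 in the full solution, 742.3 without nitrate, 644.6 without phosphate and 192.1 without potassium. The nitrate and phosphate arrays were therefore both well above the reference, and the potassium array was the lowest of the 4. Between the highest and the lowest array the signal spanned 3.86-fold, against a median span of 1.51-fold over the 3545 probe sets above the floor on all arrays, of which 2.85% had a wider one. COR15B has no second probe set to compare with 13785_at, and any part of COR15A in the signal was not tested.

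Without nitrate, COR15B was 2.61-fold higher than on the full-nutrient array, a log2 ratio of 1.38. Its ratio was the 9th highest of 4125 probe sets tested in that comparison, of which 0.848% were at least 2-fold higher. None of the 717 other probe sets of similar brightness (mean signal from 0.5 to 2 times its own) had a ratio as high, and 2 of them reached 2-fold. COR15B was the only one of the 3 genes past 2-fold in this comparison. None was past it on the lower side, where 1.14% of probe sets were, and the nitrate ratio is subject to the uncertain nitrate supply of the reference.

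Without phosphate, COR15B was 2.27-fold higher, a log2 ratio of 1.18. This ratio ranked 100th of 4223, in a comparison where 3.62% of probe sets were at least 2-fold higher. Among 762 probe sets of similar brightness, 17 had a ratio at least as high. The difference of COR15B was thus close in size to that without nitrate, but less set apart from other transcripts on its array. Read against the mean of the other 3 arrays in place of the full-nutrient array, the log2 ratio was 0.91 and no longer reached 2-fold.

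Without potassium, COR15B was 1.48-fold lower than on the full-nutrient array, a log2 ratio of -0.57, short of the 2-fold limit that 3.28% of 4295 probe sets passed on the lower side. The leaf markers were as far or farther below the reference on this array (-0.62 to -1.06), and their part in this ratio was not tested. Of 1184 probe sets of similar brightness, 197 had a ratio as low or lower. The value equals the disagreement between probe sets that 10% of genes exceeded in this comparison (0.57), so the full-nutrient and potassium levels are not clearly apart by that measure. Against the mean of the other arrays the log2 ratio was -1.42, past 2-fold.

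**Figure D1:**
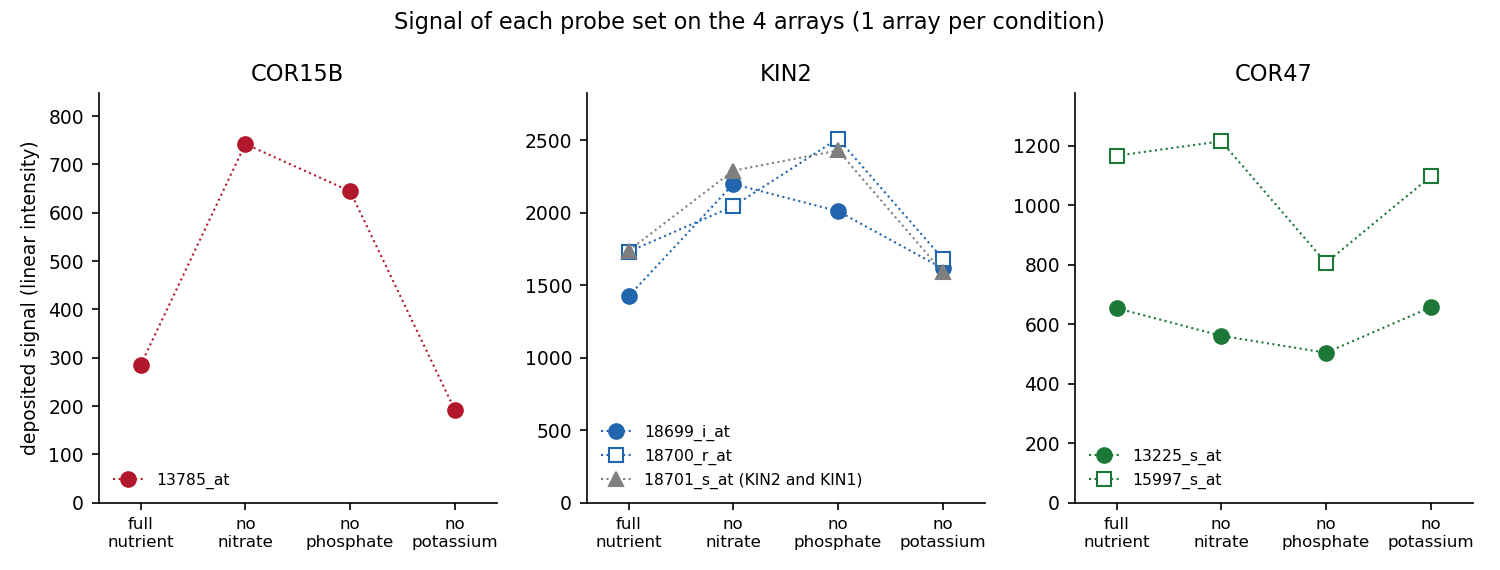
Deposited signal (linear intensity, vertical axis from 0) of each probe set on the 4 arrays, 1 point per array with no error bar because each condition had 1 array; dotted lines only join points of the same probe set. COR15B was at 742.3 and 644.6 on the nitrate and phosphate arrays and at 192.1 on the potassium array, while COR47 was lowest on the phosphate array in both of its probe sets.

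The direct comparison of depleted arrays does not use the full-nutrient array. For COR15B the potassium array was the lowest of all and the nitrate array the highest, so this pair is its widest by construction. The ranks of the potassium pairs are therefore descriptions. The potassium array was 3.86-fold below the nitrate array, a log2 ratio of -1.95. It was the 7th lowest of 4306 probe sets, 5.34% of which were at least 2-fold lower, and none of 793 of similar brightness was as low. Against the phosphate array the potassium array was 3.36-fold lower, a log2 ratio of -1.75. That was the 6th lowest of 4300, where 2.28% were at least 2-fold lower, and again none of 857 of similar brightness was as low. These pairs share the potassium array and are not independent of each other. Phosphate and nitrate arrays differed by a log2 ratio of -0.20, within the median disagreement between probe sets of a gene (0.25). COR15B levels were thus highest without nitrate and without phosphate, with no clear order between these, and lower in the full solution and without potassium, which are not clearly apart either.

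KIN2 had somewhat higher signals on the nitrate and phosphate arrays and did not reach 2-fold in any comparison. The means of its probe sets, though not each probe set, stayed within the wider disagreement between probe sets. Probe set 18699_i_at read 1423.9 in the full solution, 2198.7 without nitrate, 2011.1 without phosphate and 1615.9 without potassium. Probe set 18700_r_at had 1731.6, 2045.3, 2511.9 and 1682.7 in the same order. Both were above the full-nutrient array without nitrate and without phosphate, but they disagreed on which of these arrays was higher.

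As a mean of its probe sets, KIN2 had a log2 ratio of 0.43 without nitrate, 1.35-fold higher, with its probe sets at 0.63 and 0.24. The gap of 0.39 between them was about as large as the ratio. Of the probe sets of similar brightness without nitrate, 10 of 248 and 51 of 242 had ratios at least as high as 0.63 and 0.24, respectively. Without phosphate the mean was 0.52, 1.43-fold higher, and the probe sets lay close together at 0.50 and 0.54. Among probe sets of similar brightness in that comparison, 29 of 275 and 16 of 228 had ratios at least as high as these. The probe sets of KIN2 thus agreed more closely without phosphate than without nitrate. Both means lie below the disagreement that 10% of genes exceeded (0.50 without nitrate and 0.56 without phosphate). By that measure, a wide limit for a mean, KIN2 is not clearly apart from the full-nutrient level. The higher probe set without nitrate (0.63) exceeded it. Against the other 3 arrays the means were 0.24 and 0.35. That reference contains the other depleted arrays, so these values do not compare KIN2 with the full-nutrient array alone.

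Without potassium, KIN2 was at the full-nutrient level, with a mean log2 ratio of 0.07 and probe sets at 0.18 and -0.04. The sign of this mean depended on the scaling and the reference, being 0.29 with quantile normalization, 0.36 with loess centring and -0.25 against the other 3 arrays. Bright transcripts as a whole were lower on the potassium array: probe sets as bright as those of KIN2 had median log2 ratios of -0.19 and -0.24. Potassium against phosphate gave a KIN2 ratio of -0.45, 1.36-fold lower, and potassium against nitrate -0.36, 1.29-fold lower, the last being -0.02 with loess centring. The deposited signals of COR15B and of both KIN2 probe sets were thus higher on the nitrate and phosphate arrays than on the other arrays. For KIN2 the mean ratios lie within the wider disagreement between probe sets, which is a wide limit for a mean. A pattern shared with COR15B is therefore neither established nor excluded.

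A further probe set, 18701_s_at, is listed for KIN2 and KIN1 together and was not counted as a member. Its signals were 1738.9 in the full solution and 2290.6, 2430.2 and 1590.2 without nitrate, phosphate and potassium. It had the same higher pair of arrays as the probe sets of KIN2 alone, with log2 ratios of 0.40, 0.48 and -0.13 for the 3 depletions. The IDs of both KIN2 probe sets carry letters that Affymetrix gave to sets for which its probe selection rules could not all be met, and any part of KIN1 in their signal was not tested.

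COR47 was not higher on both the nitrate and the phosphate array in either of its probe sets. Probe set 13225_s_at read 654.0 in the full solution, 560.9 without nitrate, 503.9 without phosphate and 657.1 without potassium. Probe set 15997_s_at had 1165.9, 1214.4, 806.1 and 1096.5. The phosphate array was the lowest for both and the full-nutrient and potassium arrays lay close together, while the nitrate array was below these in the first probe set and above them in the second.

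Without phosphate, COR47 had a mean log2 ratio of -0.45, 1.37-fold lower, with its probe sets at -0.38 and -0.53. It did not reach 2-fold, which 1.40% of probe sets passed on the lower side, and lies below the disagreement that 10% of genes exceeded (0.56). Of the probe sets of similar brightness, 132 of 659 and 42 of 414 were as low or lower than these, so many other transcripts on the array were as far below the reference. The ratio stayed between -0.45 and -0.40 over 6 alternative settings, among which the other floors could not move it.

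In the other depletions COR47 was at the full-nutrient level. Its mean log2 ratio was -0.08 without nitrate, where the probe sets were at -0.22 and 0.06, and -0.04 without potassium, where they were at 0.01 and -0.09. These means had no settled sign: against the other 3 arrays they were 0.08 and 0.14, and the potassium ratio was 0.06 with quantile normalization. Potassium against phosphate, in which COR15B and KIN2 were lower, gave COR47 a log2 ratio of 0.41, 1.33-fold higher, with its probe sets 0.06 apart. Both COR47 probe sets have the ID letter for probes that match more than 1 transcript, and any part of ERD10 in their signal was not tested.

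**Figure D2:**
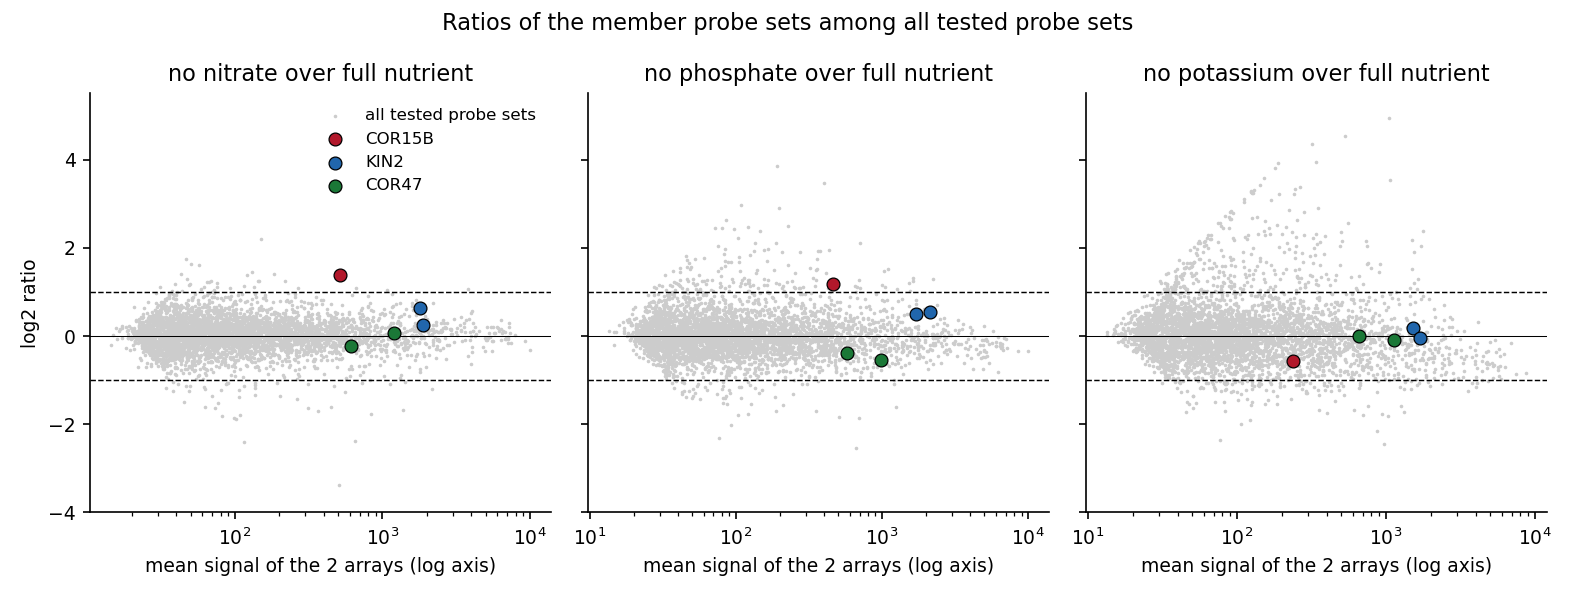
Log2 ratio to the full-nutrient array (vertical axis) against mean signal of the pair of arrays (log axis) for every tested probe set, with the 5 probe sets of COR15B, KIN2 and COR47 coloured and dashed lines at 2-fold. COR15B lies above the upper line without nitrate (1.38) and without phosphate (1.18), and all other coloured points lie between the lines.

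In all, 1 of the 3 genes passed 2-fold without nitrate, 1 without phosphate and 0 without potassium, against 1.99%, 5.02% and 10.3% of all tested probe sets in either direction. On the higher side alone, 7.01% of probe sets passed without potassium. With 3 genes, a count of 0 without potassium is near that background and is no result about them. The 3 comparisons share the full-nutrient array, so a high or low value of a gene on that array would enter all of its ratios.

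A wider list of cold, dehydration and abscisic acid genes was read to see where the 3 genes stand. It has 86 other genes, of which the annotation named 6 with a probe set of their own. None of the neighbours COR15A, KIN1 and ERD10 was among them, and none of the 19 genes of abscisic acid synthesis, breakdown and signalling. The list is therefore a sparse sample of the response, and the regulators CBF1, CBF2 and CBF3 are not analysed here.

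LTI30, the gene of another cold-responsive dehydrin, read 17.3 in the full solution, 10.8 without nitrate, 28.8 without phosphate and 103.0 without potassium. Its full-nutrient signal was below the floor of 25.04, so the log2 ratio of 2.04 without potassium is a lower bound. This dehydrin gene was highest on the potassium array, the array on which COR15B was lowest and COR47 was at its full-nutrient level. HVA22C, a relative of an abscisic acid-induced barley gene, read 37.0, 40.7, 31.5 and 22.0 in the same order, near or below the floor throughout. LEA4-5, another LEA gene, was below the floor on all arrays.

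STZ, the gene of a zinc finger repressor induced by cold, drought and salt, was measured by 2 probe sets, whose log2 ratios without nitrate were 0.08 and -0.20. Without phosphate they were 1.29 and 1.09, and without potassium 1.97 and 1.39. OSM34, an osmotin-like gene, had log2 ratios of 0.94, 1.67 and 4.53 in the order nitrate, phosphate, potassium. Both genes were thus highest on the potassium array, on which COR15B was lowest. GI, a clock gene whose mutants are altered in freezing tolerance, had log2 ratios of 0.36 and 0.54 without nitrate, -0.07 and -0.20 without phosphate, and 0.19 and -0.38 without potassium on the 2 probe sets above the floor.

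Over the genes of the wider list with a ratio, without the 3 members, the median log2 ratio was 0.29 for 4 genes without nitrate, 0.20 for 5 genes without phosphate and 1.68 for 5 genes without potassium. The medians over all genes tested were 0.03, 0.00 and 0.03. At least 2-fold higher were 0, 2 and 3 list genes, where 0.557%, 2.59% and 6.17% of all genes were higher. The list was chosen with earlier results of these arrays known, so its medians and counts are descriptions and no test of the list. In each depletion 0 list genes were at least 2-fold lower, where 1.24%, 1.45% and 2.59% of all genes were. With 4 or 5 genes, that count of 0 is near the background and is no result about the list. The 2 genes without phosphate were STZ and OSM34, and LTI30 joined them without potassium. With 4 or 5 genes each median rests on a single gene or a pair. The median without phosphate is the ratio of LTI30, which is a lower bound because its full-nutrient signal was below the floor. Without potassium the ratios of LTI30 and HVA22C are bounds, and the median is that of STZ. Without potassium it was 0.66 with a lower floor of 0.1 times the trimmed mean, and without phosphate it was 1.19 with a floor of 0.5 times it.

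**Figure D3:**
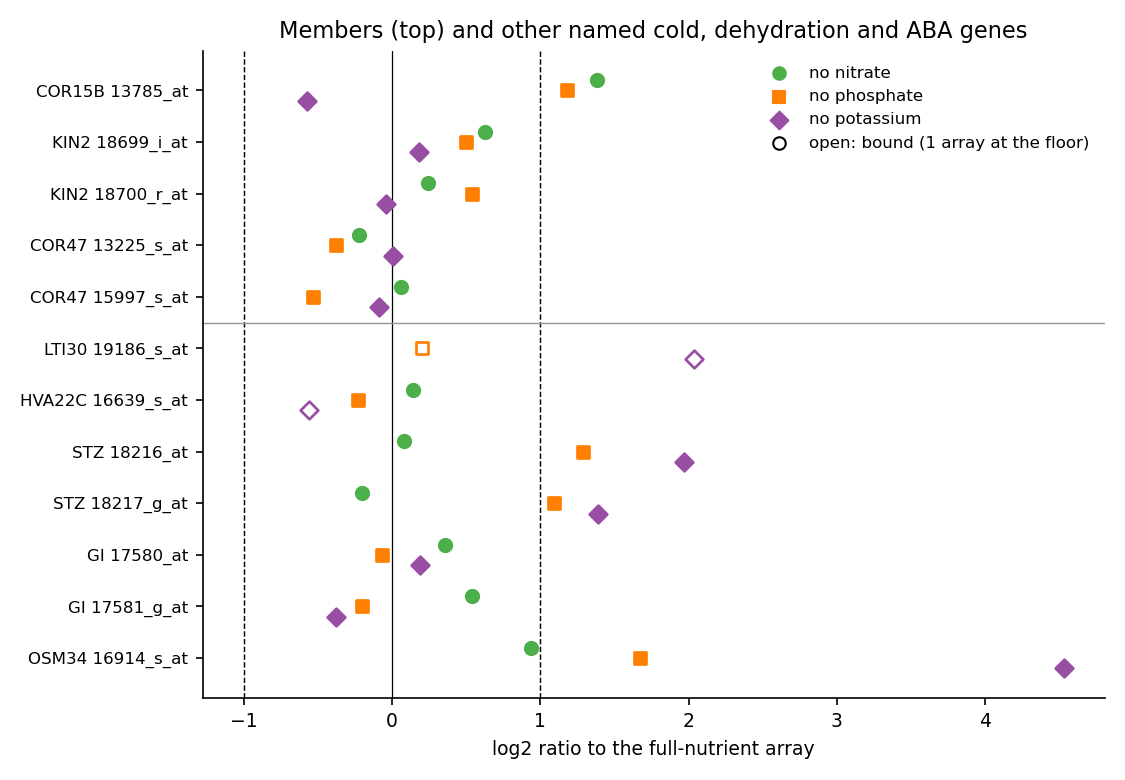
Log2 ratio to the full-nutrient array (horizontal axis, dashed lines at 2-fold) for each probe set of the 3 genes (above the grey line) and of the other named cold, dehydration and abscisic acid genes, with open symbols for bounds. COR15B and KIN2 have their nitrate and phosphate points to the right of their potassium points, whereas STZ and OSM34 have the potassium point farthest right.

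Genes with the most similar pattern were sought among 1353 genes above the floor on all 4 arrays, by the root mean square difference of their 3 log2 ratios from those of each member. No gene came within 0.10 of COR15B. The nearest was AT1G27210 at a difference of 0.471, with log2 ratios of 0.96, 0.86 and 0.05 in the order nitrate, phosphate, potassium. It was followed by AT1G09750 (0.472), STOMAGEN (0.503), AT1G04680 (0.528) and AT3G51670 (0.569), against a median of 1.139 over all genes. STOMAGEN, which encodes a secreted peptide that promotes stomata, had ratios of 0.99, 1.29 and 0.20. All 5 were higher without nitrate and without phosphate, which is no further result because they were chosen by closeness to the ratios of COR15B. None had a potassium ratio as low as that of COR15B, the lowest of the 5 being -0.06.

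For KIN2, 5 genes lay within 0.10, namely AT2G03240, AT4G09890, AT4G14300, AT1G47670 and AT2G47850, with differences of 0.082 to 0.097. For COR47, 20 genes lay within 0.10, the nearest being AT3G52030 (0.023), AT4G14160 (0.059), AT4G25170 (0.066), AT4G10140 (0.067) and AT2G24580 (0.067). Neither COR15B, KIN2 nor COR47 was among the nearest 5 of another. The median difference over all genes was 0.502 for KIN2 and 0.401 for COR47. These distances are smaller for genes with ratios near 0, so the numbers of near genes are not comparable between the members, and the 3 ratios share a reference.

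**Figure D4:**
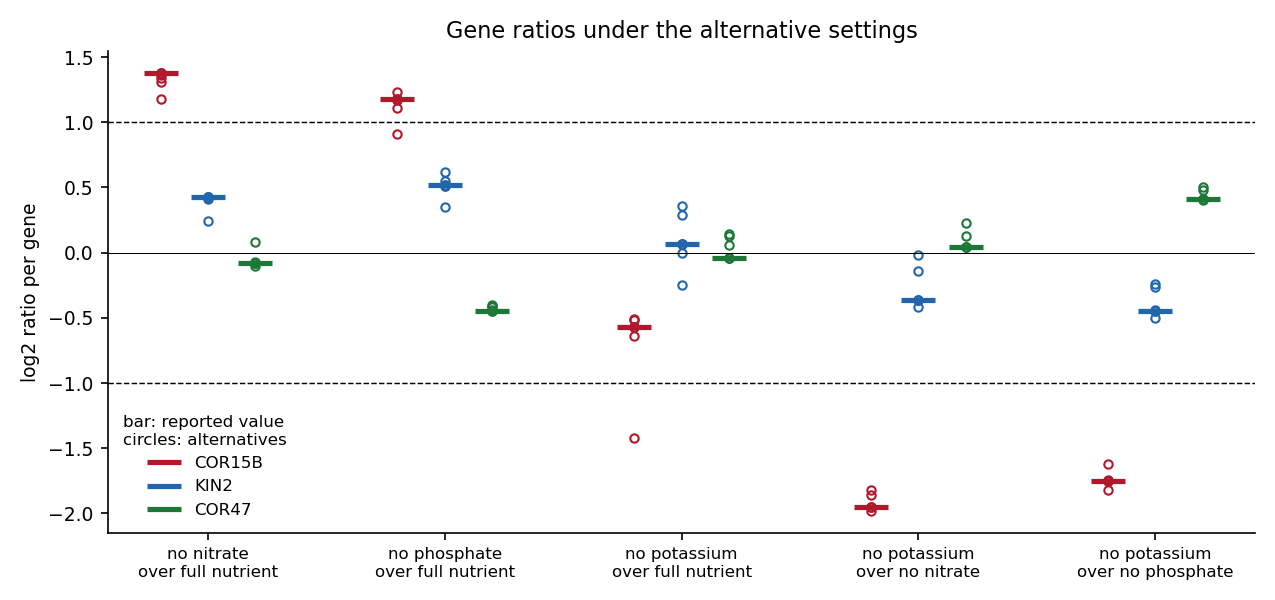
Log2 ratio per gene (vertical axis, dashed lines at 2-fold) for each depletion over the full-nutrient array and for the potassium array over the nitrate and phosphate arrays; bars are the reported values and circles the alternative settings. The COR15B circles stay between 1.18 and 1.38 without nitrate and between -1.98 and -1.82 for potassium over nitrate, while those of KIN2 without potassium fall on both sides of 0.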

How the data were processed

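Biotin-labelled leaf RNA was measured on 4 single-colour Affymetrix arrays, 1 per condition. The authors deposited a table of linear intensity values for each probe set on each array; which expression algorithm made them is not given in the sources used here. Trimmed means (2% of probe sets left out at each end) of the deposited intensity values were 100.146 to 100.174, so they had been scaled alike.

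Of 8297 probe sets, 50 controls were left out. Groups came from the source names, since the letters in the title of the phosphate-free sample differ from its written treatment. Each array was brought to their common value (T = 100.16), lower signals were raised to 0.25 T (25.04, the floor), and log2 was taken. Probe sets above the floor on at least 1 array of a pair were tested, and 3921 to 4088 lay above it per array. A ratio with 1 array at the floor is a bound. Gene values are means over single-gene probe sets. The platform annotation listed 1 gene for 3794 probe sets, several for 70 and none for 4383, and 3784 of the first matched TAIR10.1 identifiers.

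Genes named are the 3 members, every annotated gene of the wider list, and the 5 genes nearest to each member in their ratios. Members and lists were chosen with earlier results of these data known. The comparison with probe sets of similar brightness was added after the ratios were seen. Calculations used Python 3.11.15 and pandas 2.3.3, and the ratio step was tested on simulated data. Alternatives were other floors, a pseudocount, quantile normalization, loess centring (statsmodels 0.14.6), another reference and plain probe sets. The number of arrays limits the precision.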

Additional observations from a re-analysis of the deposited data

How the results depend on the processing

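No paired analysis was possible because each condition had 1 array. Of 183 alternative values of the members, 176 kept their side of 2-fold and moved by no more than the median disagreement between probe sets of a gene. The other floors could not move any of these values, since all member signals lay above them, and plain probe sets could not move COR15B. Values of single KIN2 and COR47 probe sets are counted beside the gene means they enter. The count therefore overstates how far the settings tested the ratios. COR15B against the other 3 arrays had log2 ratios of 0.91 without phosphate and -1.42 without potassium, in place of 1.18 and -0.57, since that reference contains the other depleted arrays. KIN2 without potassium was -0.25 against that reference, and its ratio of potassium to nitrate was -0.02 with loess centring. The probe set shared with KIN1, an alternative chosen after seeing the data, moved KIN2 by no more than 0.07. With plain probe sets only, KIN2 and COR47 had no value.

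The median of the wider list without nitrate was -0.75 against the other 3 arrays, with 2 genes lower. Without phosphate it was 1.19 with a floor of 0.5 T, -0.16 against the other 3 arrays and 0.61 with plain probe sets, with 0 and 1 genes higher in the last pair. Without potassium it was 0.66 with a floor of 0.1 T, 1.36 with one of 0.5 T, 1.31 against the other 3 arrays and 1.08 with plain probe sets, with 1 gene higher in the last. Plain probe sets left only STZ and GI of the list with a ratio, so fewer genes could pass 2-fold in that setting.

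Counts of all probe sets past 2-fold changed with the floor, the pseudocount, the reference and the set of probe sets read. Plain probe sets are a part of the whole, so their counts cannot be larger by construction. Without nitrate, where 35 were higher and 47 lower, a floor of 0.1 T gave 100 and 98, the pseudocount 19 and 29, the other reference 55 and 135, and plain probe sets 23 and 27, and a floor of 0.5 T gave 17 higher. Without phosphate, 153 were higher and 59 lower. The floor of 0.1 T gave 259 and 102, the other reference 75 and 37, and fewer were lower with the floor of 0.5 T (38), the pseudocount (25) and plain probe sets (37). Without potassium, 301 were higher and 141 lower, with 196 higher among plain probe sets, and 226 lower with the floor of 0.1 T and 73 with the pseudocount. The cause of these shifts was not tested beyond what each setting changes by construction. Signals of COR15B, KIN2 and COR47 were at least 192.1, so the floor did not enter their ratios.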
